A study of Mus musculus with 38 samples.

Results

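The Trim family was followed through the inflammatory activation of mouse macrophages. Members were all genes of the deposited RNA table whose symbol is Trim followed by a number, and there were 39 of them among 11184 listed genes. RefSeq lists 69 mouse symbols of that form, and the 30 others were not analysed here. A gene was tested when it reached 1 RPKM (reads per kilobase of exon, scaled to library size) in at least 4 of 32 libraries. That held for 34 members, while Trim2, Trim6, Trim7, Trim45 and Trim62 lay below this minimum.

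The cells were bone marrow-derived macrophages of C57BL/6 mice, with no genetic change named in the labels. In the 3 LA groups, lactic acid (LA) was added 4 h after LPS and interferon gamma and RNA was taken at 8, 16 and 24 h, and in 4 groups LPS (5 ng/ml) and interferon gamma (12 ng/ml) alone were given for 4, 8, 16 and 24 h. Unstimulated cells were the 0 h group. LPS is a bacterial cell wall component, and with interferon gamma it drives unstimulated (M0) macrophages to the inflammatory M1 state. Each group had 4 RNA libraries. The labels do not say whether these came from separate mice or cultures, so p-values measure the spread between libraries, which may be technical. Times of the LA groups were read as times after LPS and interferon gamma, and no dose of lactic acid is stated in the labels. Chromatin of M1 cells at 24 h and of M0 cells was profiled by ChIP-seq for lactylation (H3K18la) and acetylation (H3K18ac) of lysine 18 of histone H3, with 1 library each.

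TRIM proteins carry a RING domain, B-boxes and a coiled coil, and most attach ubiquitin to other proteins. Many are induced by interferon and act in antiviral defence, some as direct restriction factors and some by ubiquitylating sensors and adaptors of innate signalling, where members exist that amplify NF-kB signals and others that end them. The TIF1 members (Trim24, Trim28 and Trim33) work in the nucleus as transcriptional co-regulators.

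Each library held 60.6 to 103.9 M reads in listed genes. On the first 2 principal components, 24 h replicate 4 and LA 24 h replicate 1 stood apart from their groups, and members whose 24 h calls changed without both are named beside each comparison. All 10 macrophage markers were listed, with sums from 10700 to 54200 RPKM. Neutrophil markers were listed for 5 of 8 genes, with summed means of 70.7 RPKM at 4 h and 14.6 RPKM at 0 h over a range of 10.4 to 84.2 RPKM, and Ly6g, Elane and Mpo were not among the listed genes. With lactic acid their summed means were 45.2 RPKM at 8 h, 21.6 RPKM at 16 h and 25.8 RPKM at 24 h. Without it they were 64.5, 40.4 and 26.0 RPKM at these times. None of 8 lymphocyte and none of 6 erythroid and mast cell markers was listed. Dendritic cell markers (2 of 6 listed, 0.0273 to 3.17 RPKM) and stromal markers (4 of 6 listed, 0.299 to 2.44 RPKM) were near 0. The part of these cells in the values below was not tested. In bulk RNA, a change in cell make-up and a change in RNA per cell cannot be told apart.

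Together the 39 members made up 294 ± 12.7 RPKM at 0 h, 663 ± 34.0 RPKM at 4 h, 350 ± 11.3 RPKM at 8 h, 298 ± 10.6 RPKM at 16 h and 296 ± 15.9 RPKM at 24 h (SD, n = 4 each). On the authors' effective library sizes the family sum was highest at 4 h. By 16 h it lay within the spread of the 0 h libraries. These effective sizes were 1.324 to 1.342 times the reads in listed genes at 0 h and 0.982 to 1.056 times at 16 h. They were 0.856 to 1.021 times at 24 h and 0.756 to 0.864 times at LA 24 h. Sums scaled to those reads were not computed. With lactic acid the sum was 359 ± 13.1 RPKM at 8 h, 335 ± 10.3 RPKM at 16 h and 311 ± 10.6 RPKM at 24 h. A few genes carried most of it: at 4 h the highest members were Trim30a, Trim21, Trim25, Trim30d and Trim13, and at 0 h they were Trim30a, Trim25, Trim28, Trim8 and Trim35. Trim30a made up 26.8% of the summed RPKM at 4 h, against 13.3% at 0 h, and Trim21 20.4% at 4 h, against 5.19% at 0 h.

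**Figure D1:**
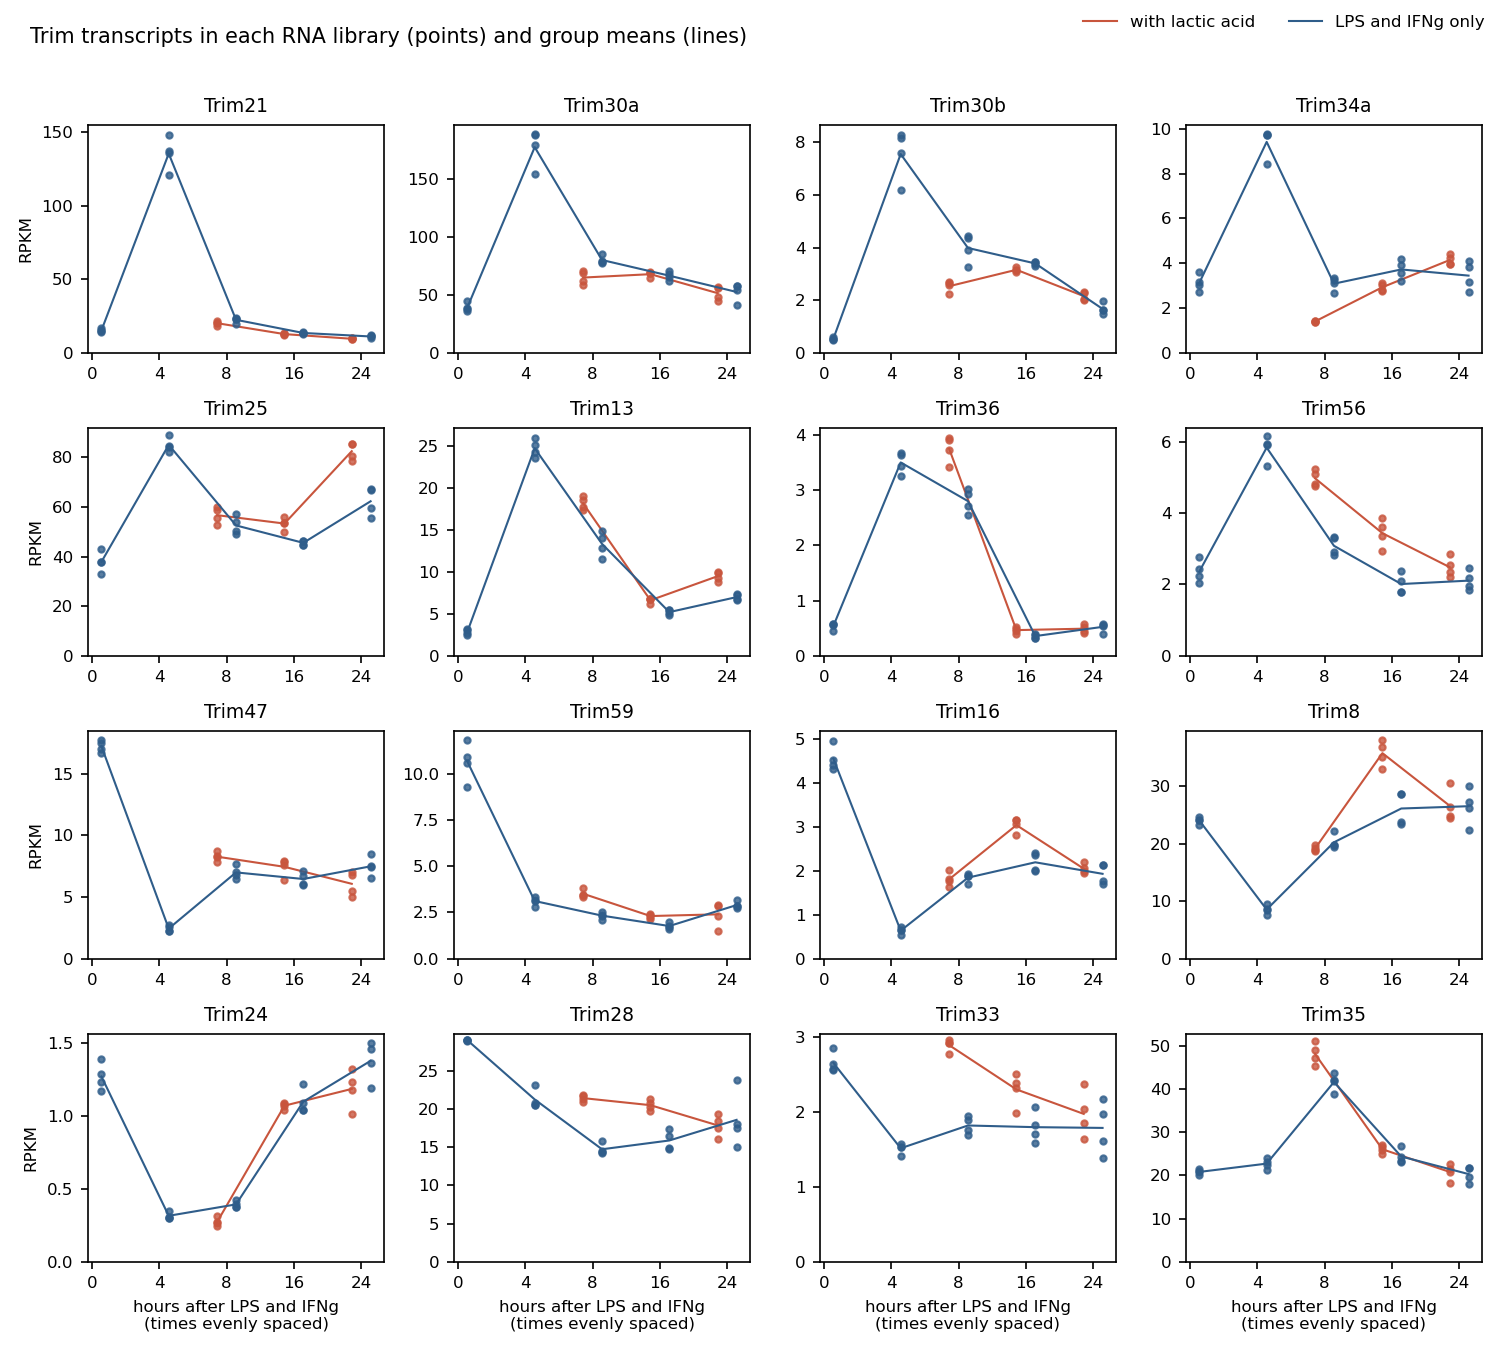
RPKM in each of 4 libraries per group (points) for 16 members, with LA groups to the left of the groups of the same time without it and times from 0 to 24 h spaced evenly. Trim21 lies between 121 and 148 RPKM at 4 h and between 14.0 and 16.9 RPKM at 0 h, while Trim47 lies between 2.21 and 2.76 RPKM at 4 h and between 16.7 and 17.7 RPKM at 0 h.

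The 4 h groups against 0 h show the first response to LPS and interferon gamma. The family split: 13 tested members rose and 19 fell by limma's test (Benjamini-Hochberg adjusted p under 0.05 over all 9942 tested genes), and Trim35 and Trim23 did not pass. The background was high, since 85.3% of all tested genes passed, 42.5% higher and 42.7% lower. The deposited table lists genes that passed the authors' own test of any group against 0 h, with 19 exceptions. All 39 members had passed it. High shares against 0 h were thus partly set in advance, for members and for all tested genes. Changes of at least 2-fold (1 on the scale of log2(RPKM + 1), used for all log2 values here) were found for 12 members higher and 5 lower, against 13.8% and 11.5% of all tested genes. By the ratio of mean RPKM, Trim12c (higher) and Trim24, Trim41, Trim46 and Trim68 (lower) also passed 2-fold. The members' median log2 change was -0.15, against 0 over all tested genes. Most of the rises were of interferon-linked members: 6 of 7 tested genes of the chromosome 7 cluster rose (median log2 change 1.39) and 5 of 7 other antiviral members rose (median 1.15). Of 7 tested adaptors and brakes of NF-kB and cytokine signalling, 1 rose and 5 fell (median -0.50), and all 3 TIF1 members fell (median -0.54).

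**Figure D2:**
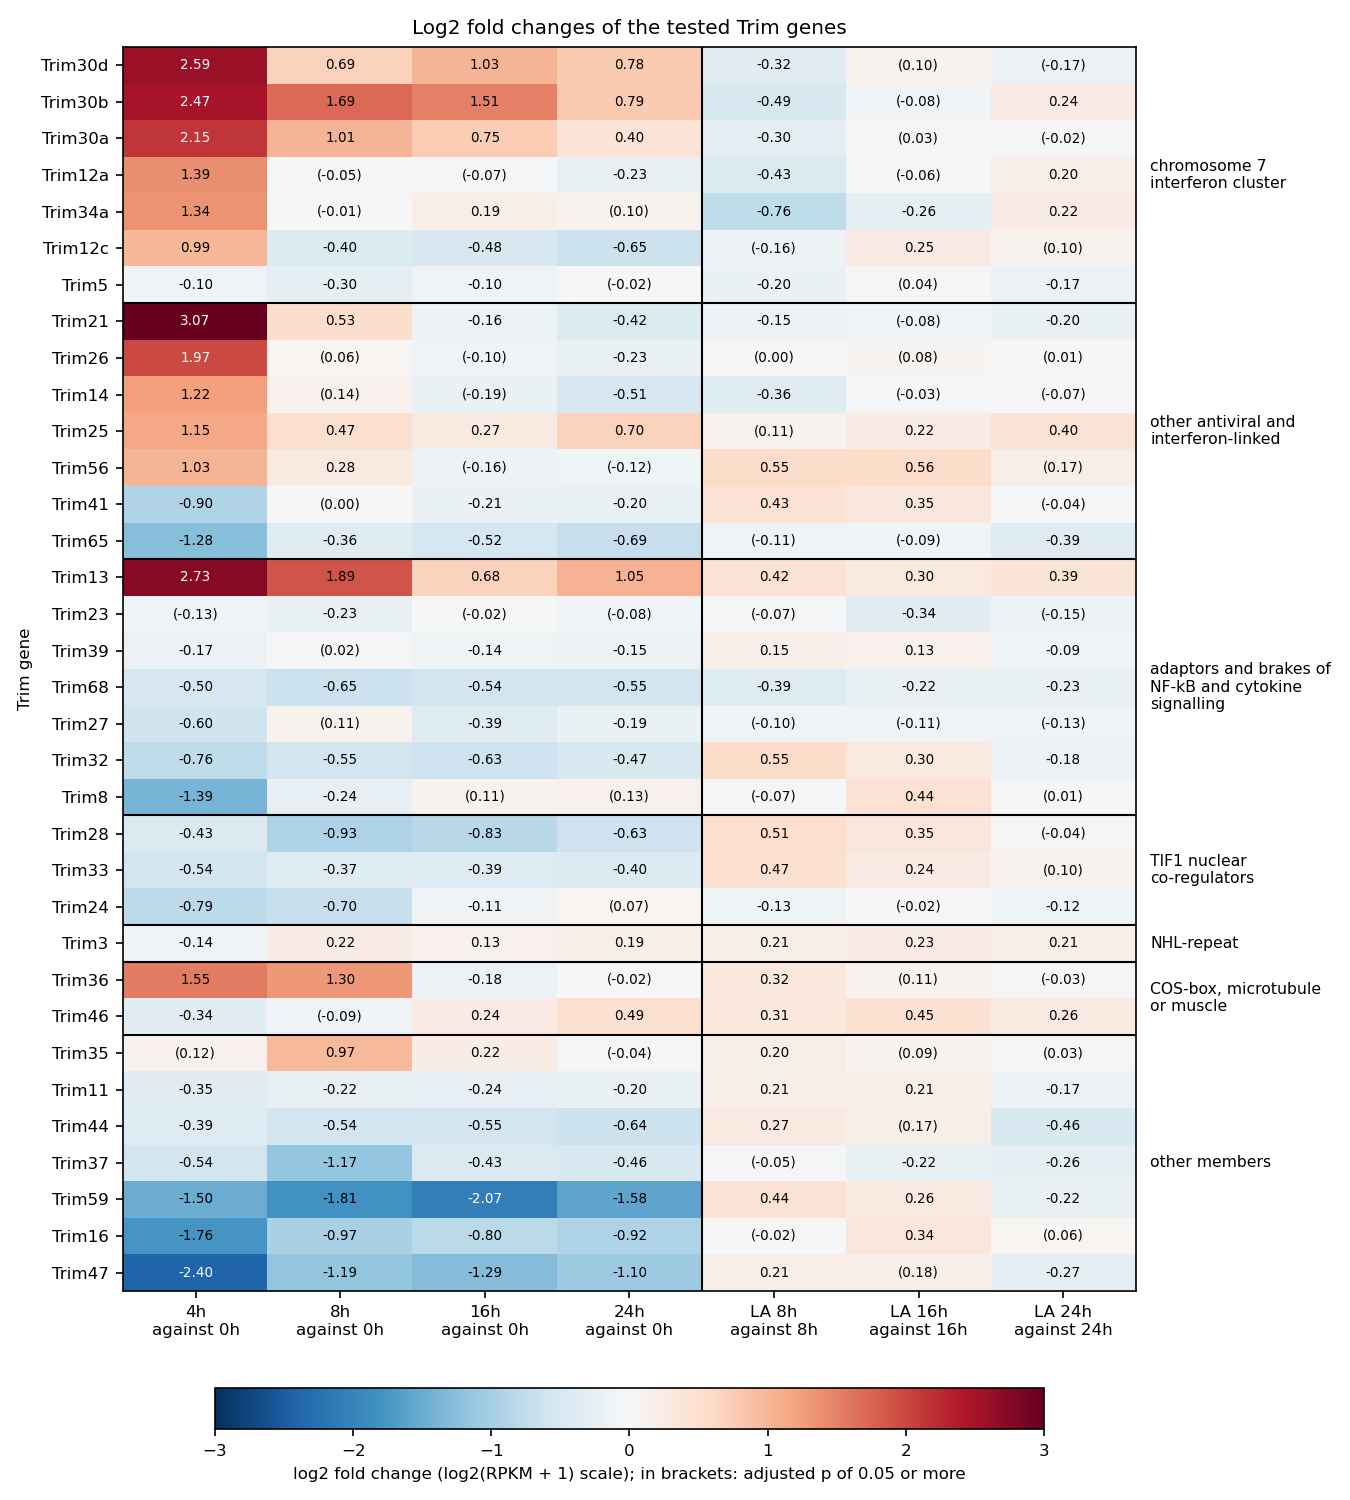
Log2 fold changes of mean log2(RPKM + 1) for the 34 tested members (rows, grouped by role) in 7 comparisons (columns), with values in brackets where the adjusted p was 0.05 or more. The largest rise at 4 h is 3.07 for Trim21, the largest fall -2.40 for Trim47, and lactic acid effects lie between -0.76 and 0.56.

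The chromosome 7 cluster of rodent TRIM genes, from Trim6 to Trim30d, lies at chr7:104218795-104507853 (GRCm38.p6, RefSeq bounds). It holds relatives of primate TRIM5, a restriction factor of retroviral capsids, and the Trim30 genes, of which mouse Trim30a is known to dampen Toll-like receptor signalling through TAB2 and TAB3. Promoters of the cluster and of other members are shown here to place interferon elements in members that rose at 4 h and in Trim5, which did not. Each sequence runs from 250 bases before to 50 bases after a RefSeq start site (GRCm38.p6), on the strand of the gene. Capitals mark each match, on either strand, to the core of the interferon-stimulated response element (ISRE), written as GAAA, then any 2 bases, then GAAA, which IRF factors bind.
Trim30a, chr7:104465144-104465443, minus strand: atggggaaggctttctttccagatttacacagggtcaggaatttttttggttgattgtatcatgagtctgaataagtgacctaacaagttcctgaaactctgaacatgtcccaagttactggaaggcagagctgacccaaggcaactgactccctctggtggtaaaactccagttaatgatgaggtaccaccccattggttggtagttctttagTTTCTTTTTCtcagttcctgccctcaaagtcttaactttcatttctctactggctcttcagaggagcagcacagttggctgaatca
Trim30d, chr7:104507800-104508099, minus strand: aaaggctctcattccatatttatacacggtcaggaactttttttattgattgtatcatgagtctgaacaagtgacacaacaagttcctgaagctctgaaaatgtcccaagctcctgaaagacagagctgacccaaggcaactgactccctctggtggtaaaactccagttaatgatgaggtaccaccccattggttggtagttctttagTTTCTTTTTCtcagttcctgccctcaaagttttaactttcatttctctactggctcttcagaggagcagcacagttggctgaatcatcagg
Trim34a, chr7:104244207-104244506, plus strand: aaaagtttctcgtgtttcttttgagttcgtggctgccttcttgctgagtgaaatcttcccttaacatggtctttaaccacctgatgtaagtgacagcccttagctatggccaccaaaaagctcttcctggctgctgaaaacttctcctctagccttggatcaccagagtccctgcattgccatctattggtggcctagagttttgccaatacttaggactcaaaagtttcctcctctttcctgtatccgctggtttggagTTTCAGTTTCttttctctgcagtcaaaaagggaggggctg
Trim12a, chr7:104315446-104315745, minus strand: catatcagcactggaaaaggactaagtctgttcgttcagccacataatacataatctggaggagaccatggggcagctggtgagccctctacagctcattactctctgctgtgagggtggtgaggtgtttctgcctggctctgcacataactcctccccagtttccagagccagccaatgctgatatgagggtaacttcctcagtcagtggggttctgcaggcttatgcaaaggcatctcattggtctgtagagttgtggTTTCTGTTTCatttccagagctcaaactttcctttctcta
Trim5, chr7:104288057-104288356, minus strand: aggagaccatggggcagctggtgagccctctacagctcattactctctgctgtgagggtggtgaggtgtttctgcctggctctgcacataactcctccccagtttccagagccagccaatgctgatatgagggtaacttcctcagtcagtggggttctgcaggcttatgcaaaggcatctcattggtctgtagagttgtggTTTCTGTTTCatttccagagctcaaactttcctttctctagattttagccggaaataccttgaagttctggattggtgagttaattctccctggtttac
Trim21, chr7:102565433-102565732, minus strand: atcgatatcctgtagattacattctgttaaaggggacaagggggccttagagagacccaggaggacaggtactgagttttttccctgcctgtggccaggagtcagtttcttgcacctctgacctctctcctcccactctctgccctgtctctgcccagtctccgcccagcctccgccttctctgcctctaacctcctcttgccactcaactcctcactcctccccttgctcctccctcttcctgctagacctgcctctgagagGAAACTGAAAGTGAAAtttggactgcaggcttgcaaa
Trim26, chr17:36836896-36837195, plus strand: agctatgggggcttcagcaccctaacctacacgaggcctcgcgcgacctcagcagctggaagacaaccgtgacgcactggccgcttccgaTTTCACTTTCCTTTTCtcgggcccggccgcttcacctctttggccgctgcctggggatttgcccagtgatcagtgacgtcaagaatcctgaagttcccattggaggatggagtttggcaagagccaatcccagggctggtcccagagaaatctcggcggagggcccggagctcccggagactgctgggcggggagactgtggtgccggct
Trim13, chr14:61597976-61598275, plus strand: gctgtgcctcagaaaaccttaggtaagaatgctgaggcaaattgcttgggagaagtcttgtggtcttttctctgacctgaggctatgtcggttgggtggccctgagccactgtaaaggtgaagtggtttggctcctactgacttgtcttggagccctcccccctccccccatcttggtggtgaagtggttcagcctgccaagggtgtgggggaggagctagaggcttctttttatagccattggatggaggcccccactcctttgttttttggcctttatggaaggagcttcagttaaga
Trim30a and Trim30d carry the same 10 letters at their marked match and share a longest identical run of 118 bases. Trim12a and Trim5 share 241 of 300 bases in 1 run, with the match inside it. Trim13 is shown because it rose at 4 h with no match in either of its RefSeq promoters.

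Start sites were found for 30 members, with 42 promoters in all. At least 1 match to the ISRE core was present in 10 of 42 member promoters (23.8%), against 1131 of 32851 promoters in the RefSeq table (3.44%). The matches belonged to 9 of 30 genes: Trim2, Trim5, Trim12a, Trim12c, Trim21, Trim26, Trim30a, Trim30d and Trim34a. Most lay close to the start: 10 bases after it in Trim12a and Trim34a, 13 and 19 bases after it in Trim21, 36 and 41 bases before it in the promoters of Trim30a and Trim30d shown above, and 160 and 154 bases before it in Trim26. Overlapping matches in Trim21 and Trim26 read as 1 longer run of capitals. At 4 h, 7 of 8 tested members with the ISRE core rose and 1 fell (median log2 change 1.68). Of 17 tested members without it, 4 rose and 12 fell (median -0.43). All of the 8 but Trim21 and Trim26 are genes of the chromosome 7 cluster, with shared promoter runs of up to 241 bases. Their promoters are thus not independent, and the motif share and this split in part repeat the cluster. Over all tested genes, 59.8% of 331 with the match rose and 30.2% fell, against 41.8% higher and 43.5% lower of 7492 without it. The core of the gamma-activated site, written as TTC, then any 3 bases, then GAA, was also searched. It was present in 2 of 42 member promoters (4.76%), against 8.3% of all 32851 promoters. Only 1 tested member held it, and that member fell at 4 h (log2 change -0.34). A match is a string of letters and not a measured binding site.

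**Figure D3:**
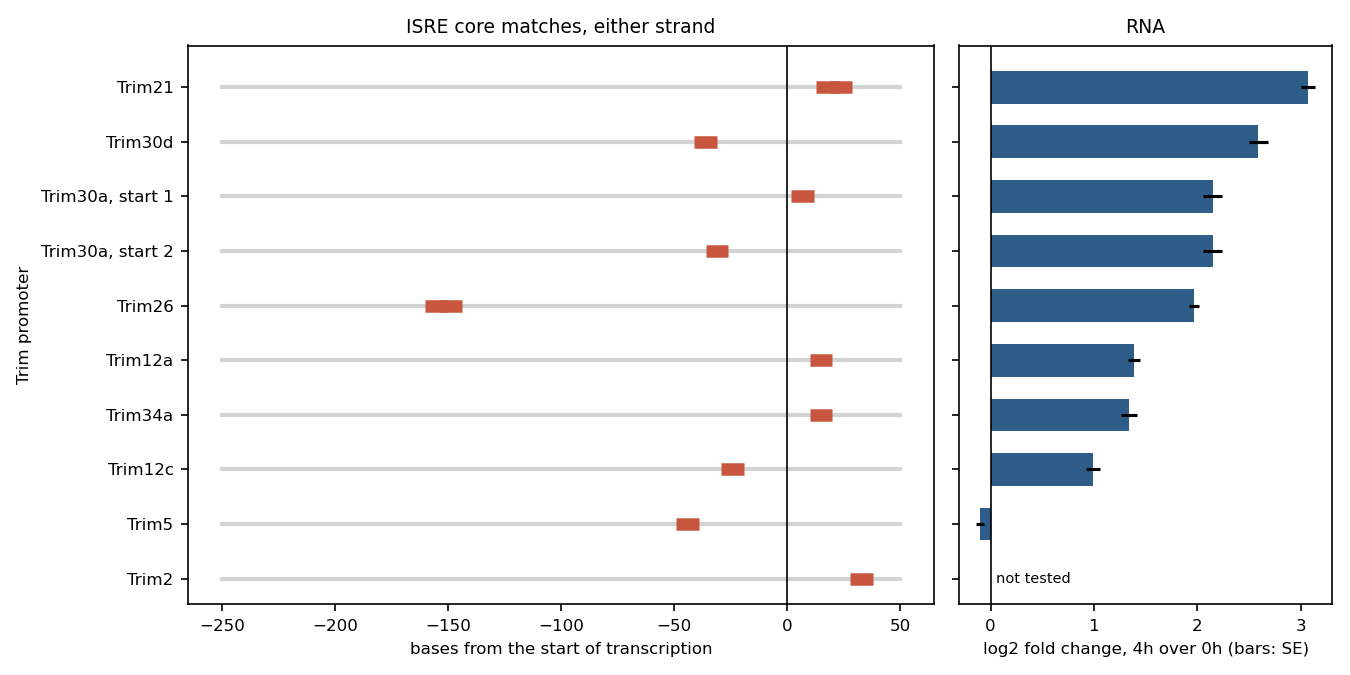
Left, positions of matches to the ISRE core (segments) in bases from the RefSeq start site for member promoters that hold one. The window runs from 250 bases before to 50 bases after the start. Right, the log2 fold change at 4 h over 0 h of each gene with its standard error, by which the promoters are ordered. The matches of Trim12a, Trim34a and Trim21 lie 10 to 19 bases after the start, and those of Trim26 lie 160 and 154 bases before it.

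Trim30a, the highest member in most groups, had 154, 188, 189 and 179 RPKM at 4 h, against 36.4, 38.4, 44.9 and 37.6 RPKM at 0 h. All 4 h libraries lay above all 0 h libraries, and the mean rose 4.52-fold (log2 change 2.15, SE 0.09, adjusted p 2.2e-20 by limma). Its neighbour Trim30d had 54.3, 63.8, 64.7 and 62.3 RPKM at 4 h, against 8.37, 9.41, 10.7 and 8.91 RPKM at 0 h, a rise of 6.56-fold (log2 2.59, SE 0.09, adjusted p 8.4e-23). Trim30b, another close relative, had 6.19, 8.18, 8.27 and 7.58 RPKM at 4 h, against 0.499, 0.541, 0.591 and 0.528 RPKM at 0 h. It was nearly silent in M0 cells, and its mean was 14.0-fold higher at 4 h (log2 2.47, SE 0.07, adjusted p 1.2e-24). These genes are near-identical in parts, so how the authors' counting split shared reads bears on each single value, and the exon length behind Trim30b (5954 bases) exceeds its RefSeq span (3249 bases).

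Trim34a, whose human relative is an interferon-induced restriction factor, had 8.45, 9.75, 9.73 and 9.73 RPKM at 4 h, against 2.73, 3.16, 3.59 and 3.04 RPKM at 0 h (log2 1.34, SE 0.08, adjusted p 2.1e-16). Trim12a had 7.51, 9.11, 8.60 and 8.48 RPKM at 4 h, against 2.55, 2.41, 2.89 and 2.49 RPKM at 0 h (log2 1.39, SE 0.06, adjusted p 4.6e-19). Trim12c had 11.4, 13.7, 13.6 and 13.7 RPKM at 4 h, against 5.46, 6.07, 6.91 and 6.02 RPKM at 0 h, a smaller rise (log2 0.99, SE 0.07, adjusted p 4.4e-14). Trim5 did not follow its neighbours. It had 0.844, 0.864, 1.00 and 0.951 RPKM at 4 h, against 1.10, 1.03, 1.08 and 1.02 RPKM at 0 h, and fell by 0.10 on the log2 scale (SE 0.04, adjusted p 0.017), a call that was lost without 4 h replicate 1 or 2. Trim12a, with 241 promoter bases in common with it, rose 3.26-fold. Trim6, the first gene of the cluster, stayed between 0.238 and 0.513 RPKM in all libraries and was not tested.

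Among the other antiviral members Trim21, the cytosolic antibody receptor that targets antibody-coated viruses for degradation, changed most. It had 121, 148, 136 and 137 RPKM at 4 h, against 14.9, 15.3, 16.9 and 14.0 RPKM at 0 h. The mean rose 8.87-fold (log2 3.07, SE 0.07, adjusted p 8.9e-28), the largest rise of a tested member on the log2(RPKM + 1) scale. Trim26, which acts on IRF3 and NF-kB signalling, had 23.6, 24.8, 24.6 and 24.9 RPKM at 4 h, against 5.54, 5.41, 5.64 and 5.40 RPKM at 0 h (log2 1.97, SE 0.05, adjusted p 1.1e-25). Trim25, the ligase best known for ubiquitylating the RNA sensor RIG-I, started from a higher level. It had 82.2, 89.0, 84.0 and 84.7 RPKM at 4 h, against 33.1, 37.6, 43.1 and 37.6 RPKM at 0 h, and rose 2.24-fold (log2 1.15, SE 0.07, adjusted p 1.2e-16). Trim14, a mitochondrial adaptor of antiviral signalling, had 12.5, 12.8, 12.5 and 12.7 RPKM at 4 h, against 4.30, 4.78, 5.45 and 4.99 RPKM at 0 h (log2 1.22, SE 0.11, adjusted p 1.7e-11). Trim56, a ligase linked to double-stranded RNA and DNA sensing, had 6.17, 5.33, 5.93 and 5.92 RPKM at 4 h, against 2.03, 2.42, 2.77 and 2.24 RPKM at 0 h (log2 1.03, SE 0.08, adjusted p 7.5e-14). None of these 5 genes had overlapping libraries between 4 h and 0 h. As for Trim30b, the exon length behind Trim56 (9281 bases) exceeds its RefSeq span (5177 bases).

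The class was not uniform. Trim65, which ubiquitylates the RNA sensor MDA5, had 0.365, 0.329, 0.361 and 0.355 RPKM at 4 h, against 2.16, 2.27, 2.48 and 2.23 RPKM at 0 h, and fell by 1.28 on the log2 scale (SE 0.05, adjusted p 2.8e-20). Trim41, which in human cells restricts influenza virus, averaged 5.81 ± 0.488 RPKM at 4 h and 11.7 ± 0.787 RPKM at 0 h (SD, n = 4 each) and fell by 0.90 (SE 0.06, adjusted p 5.2e-15). MDA5 itself (Ifih1) moved the other way, with a log2 change of 3.97 (adjusted p 5.1e-27).

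Of the NF-kB and cytokine class only Trim13, a membrane-anchored ligase of the endoplasmic reticulum, rose. It had 23.6, 25.1, 26.0 and 24.3 RPKM at 4 h, against 3.13, 2.73, 2.50 and 3.16 RPKM at 0 h, an 8.60-fold rise (log2 2.73, SE 0.06, adjusted p 6.8e-27). Trim8, which promotes TNF and IL-1 signalling and binds SOCS1, had 9.52, 7.63, 8.48 and 8.60 RPKM at 4 h, against 23.2, 24.1, 24.1 and 24.7 RPKM at 0 h (log2 -1.39, SE 0.08, adjusted p 6.4e-17). Trim8 fell in every 4 h library, while SOCS1 messenger rose by 5.45 on the log2 scale (adjusted p 1.2e-25). Trim32, Trim27, Trim68 and Trim39 also fell, by 0.76, 0.60, 0.50 and 0.17, and Trim23 had a log2 change of -0.13 (adjusted p 0.18).

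The TIF1 co-regulators were lower at 4 h. Trim28 (KAP1), the co-repressor that KRAB zinc-finger proteins recruit to retroelements, had 23.2, 20.5, 20.5 and 20.8 RPKM at 4 h, against 28.9, 29.0, 29.0 and 29.1 RPKM at 0 h. The libraries of the groups did not overlap, and Trim28 fell by 0.43 (SE 0.08, adjusted p 8.8e-06). Trim33, a partner of SMAD4, averaged 1.52 ± 0.0748 RPKM at 4 h and 2.66 ± 0.14 RPKM at 0 h and fell by 0.54 (SE 0.07, adjusted p 3.7e-08). Trim24, a co-regulator of nuclear receptors, had 0.303, 0.299, 0.309 and 0.348 RPKM at 4 h, against 1.23, 1.29, 1.39 and 1.17 RPKM at 0 h. Its mean was 4.04-fold lower, which the log2(RPKM + 1) scale gives as -0.79 (SE 0.04, adjusted p 2.2e-17).

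Of the remaining members, Trim47, Trim16 and Trim59 fell at least 2-fold. Trim47 had 2.76, 2.21, 2.58 and 2.23 RPKM at 4 h, against 17.7, 17.0, 17.5 and 16.7 RPKM at 0 h, 7.03-fold lower in mean (log2 -2.40, SE 0.08, adjusted p 7.7e-23). Trim16, which acts in the removal of damaged lysosomes, had 0.726, 0.535, 0.650 and 0.647 RPKM at 4 h, against 4.32, 4.52, 4.42 and 4.97 RPKM at 0 h, 7.13-fold lower in mean (log2 -1.76, SE 0.06, adjusted p 2.6e-23). Trim59 had 2.82, 3.12, 3.20 and 3.34 RPKM at 4 h, against 11.8, 10.6, 10.9 and 9.30 RPKM at 0 h (log2 -1.50, SE 0.09, adjusted p 2.0e-16). Each of these lost most of its RPKM within 4 h. Trim36, a microtubule-binding member, rose: it had 3.64, 3.26, 3.43 and 3.66 RPKM at 4 h, against 0.447, 0.577, 0.570 and 0.566 RPKM at 0 h (log2 1.55, SE 0.05, adjusted p 1.8e-23). Trim37, Trim44, Trim11, Trim46 and Trim3 fell by 0.14 to 0.54. Trim35 had a log2 change of 0.12 (adjusted p 0.078). Low members move more when whole reads are modelled: there the 4 h changes were 3.80 for Trim30b, 2.70 for Trim36, -2.01 for Trim24, -2.69 for Trim65, -2.83 for Trim16 and -2.82 for Trim47. In the authors' deposited table, the log2 change at 4 h was -3.12 for Trim2, -3.44 for Trim7, -1.52 for Trim45, -1.35 for Trim62 and 0.36 for Trim6, the 5 untested members.

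From 8 h on, most antiviral members came back toward their M0 levels at different speeds. At 8 h against 0 h, 10 members were higher and 16 lower, where 82.7% of all tested genes passed, 40.7% higher and 42.1% lower. Of these, 4 rose and 3 fell at least 2-fold, against 11.3% and 10.2% of all tested genes. Values were also scaled to the reads in listed genes in place of the authors' effective sizes. This took the median of all genes to -0.43, -0.40, -0.30 and -0.37 at 4, 8, 16 and 24 h against 0 h. The 8 h split became 6 members higher and 24 lower, where 22.1% of all tested genes were higher and 64.0% lower. The shift was thus one of all genes. Under that scaling the 8 h rises of Trim21, Trim25 and Trim56 no longer passed.

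Trim21 had lost nearly all of its rise by 8 h, with 24.0, 19.9, 23.3 and 22.7 RPKM, 1.47-fold over 0 h (log2 0.53, SE 0.07, adjusted p 1.7e-08). Trim26, Trim12a, Trim34a and Trim14 had log2 changes of 0.06, -0.05, -0.01 and 0.14 that did not pass (lowest adjusted p 0.23). Trim30a kept 79.4, 77.4, 84.9 and 78.8 RPKM at 8 h (log2 1.01, SE 0.09, adjusted p 5.9e-12). Trim30b had 4.36, 3.26, 4.43 and 3.89 RPKM (log2 1.69, SE 0.07, adjusted p 4.0e-20). Trim13 had 12.9, 11.5, 14.9 and 14.1 RPKM (log2 1.89, SE 0.06, adjusted p 1.7e-22) and Trim36 had 3.01, 2.54, 2.93 and 2.71 RPKM (log2 1.30, SE 0.05, adjusted p 2.3e-21). On the authors' effective sizes these 4 genes kept rises of more than 2-fold, Trim30a only just (1.01), when the other induced members had mostly returned. Trim35, a negative regulator of IRF7, rose at this time and had 43.7, 42.1, 42.0 and 38.9 RPKM at 8 h, against 21.0, 21.4, 20.7 and 20.2 RPKM at 0 h (log2 0.97, SE 0.06, adjusted p 5.0e-15). It had not passed at 4 h, so its highest level without lactic acid came at 8 h.

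Lower at 8 h by at least 2-fold were Trim59 with 2.08, 2.39, 2.33 and 2.52 RPKM (log2 -1.81, SE 0.09, adjusted p 1.9e-18), Trim47 with 7.65, 6.83, 6.46 and 7.06 RPKM (log2 -1.19, SE 0.08, adjusted p 1.1e-14) and Trim37. Trim37, whose loss in humans causes mulibrey nanism, had 0.937, 1.07, 0.989 and 1.06 RPKM at 8 h, against 3.67, 3.74, 3.35 and 3.37 RPKM at 0 h (log2 -1.17, SE 0.05, adjusted p 2.1e-20). Trim28 reached its lowest mean here, 14.7 ± 0.709 RPKM at 8 h and 29.0 ± 0.0863 RPKM at 0 h (log2 -0.93, SE 0.08, adjusted p 2.3e-12). The other TIF1 members were also lower at 8 h: Trim24 had 0.374, 0.425, 0.396 and 0.377 RPKM (log2 -0.70, SE 0.04, adjusted p 5.0e-16) and Trim33 had 1.69, 1.95, 1.89 and 1.76 RPKM (log2 -0.37, SE 0.07, adjusted p 1.9e-05). Trim25 averaged 52.5 ± 3.64 RPKM at 8 h, against 37.8 ± 4.09 RPKM at 0 h (log2 0.47, SE 0.07, adjusted p 1.5e-07).

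At 16 h against 0 h, 9 members were higher and 19 lower (76.8% of all tested genes passed, 39.9% higher and 36.9% lower), with 2 rises and 2 falls of at least 2-fold (6.57% and 6.27% of all tested genes). With that scaling the split was 4 higher and 26 lower, where 21.0% of all tested genes were higher and 60.8% lower. The 2-fold changes were those of Trim30b with 3.30, 3.37, 3.46 and 3.46 RPKM (log2 1.51, SE 0.07, adjusted p 1.4e-18), Trim30d with 19, 19.8, 20.1 and 21.5 RPKM (log2 1.03, SE 0.09, adjusted p 4.1e-12), Trim59 with 1.74, 1.62, 1.75 and 1.96 RPKM (log2 -2.07, SE 0.09, adjusted p 9.8e-20) and Trim47 with 7.15, 5.95, 6.06 and 6.70 RPKM (log2 -1.29, SE 0.08, adjusted p 2.5e-15). Trim30d averaged 20.1 ± 1.04 RPKM at 16 h, against 15.6 ± 0.597 RPKM at 8 h (SD, n = 4 each). Smaller rises were those of Trim30a (0.75), Trim13 (0.68) and Trim25 (0.27), and the last no longer passed under the scaling to reads. Smaller falls included those of Trim28 (-0.83), Trim16 (-0.80) and Trim32 (-0.63). Trim33 (-0.39), Trim21 (-0.16, adjusted p 0.029) and Trim24 (-0.11, adjusted p 0.016) were also lower at 16 h, and Trim24 averaged 1.10 ± 0.0822 RPKM at 16 h, against 1.27 ± 0.092 RPKM at 0 h.

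At 24 h against 0 h, 7 members were higher and 19 lower (77.2% of all tested genes passed, 39.9% higher and 37.3% lower), with 1 rise and 2 falls of at least 2-fold (6.27% and 5.37% of all tested genes). Scaled to reads the split was 5 higher and 28 lower, where 17.0% of all tested genes were higher and 66.3% lower. Without 24 h replicate 4 and LA 24 h replicate 1 it was 8 higher and 19 lower: Trim34a then passed (0.19, against 0.10 with all libraries), and Trim14 had -0.31 in place of -0.51 and Trim27 -0.31 in place of -0.19. Trim13 had 6.65, 7.26, 7.34 and 6.75 RPKM (log2 1.05, SE 0.06, adjusted p 2.0e-15). Trim59 had 2.73, 2.85, 2.86 and 3.16 RPKM (log2 -1.58, SE 0.09, adjusted p 1.5e-16) and Trim47 had 6.56, 7.43, 7.52 and 8.46 RPKM (log2 -1.10, SE 0.08, adjusted p 1.4e-13). Trim25 was higher at 24 h than at 16 h in mean, with 66.8, 59.6, 67.0 and 55.6 RPKM at 24 h (log2 0.70 against 0 h, SE 0.07, adjusted p 4.9e-11). Trim30a had 53.9, 57.7, 57.3 and 41.3 RPKM at 24 h, the lowest in the replicate that stood apart, and its rise of 0.40 (SE 0.09, adjusted p 0.00016) became -0.07 under the scaling to reads. Trim21 had 11.2, 12.2, 11.3 and 9.86 RPKM, below all 0 h libraries (log2 -0.42, SE 0.07, adjusted p 1.3e-06). Trim28 had 17.5, 15.0, 18 and 23.8 RPKM at 24 h, its highest value in replicate 4 and all below the 0 h libraries (log2 -0.63, SE 0.08, adjusted p 1.7e-08). Trim33 fell by 0.40 (adjusted p 9.5e-06), and Trim24 had a log2 change of 0.07 (adjusted p 0.16).

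Measured against 4 h, 12 members were higher and 16 lower at 24 h (83.6% of all tested genes passed, 42.3% higher and 41.3% lower), with 2 rises and 12 falls of at least 2-fold (11.1% and 13.4% of all tested genes). These values share their 24 h and 4 h libraries with the comparisons above. The 12 falls ran from -1.14 for Trim56 to -3.49 for Trim21, with Trim26 at -2.20, Trim30d at -1.81, Trim30a at -1.75, Trim14 at -1.72, Trim13 at -1.69, Trim30b at -1.68, Trim12c at -1.64, Trim12a at -1.62, Trim36 at -1.56 and Trim34a at -1.24. At 24 h Trim26 had 4.39, 4.87, 4.83 and 4.11 RPKM, Trim30d 16.6, 18.7, 19.3 and 13.1 RPKM and Trim14 3.82, 3.46, 3.92 and 1.76 RPKM, where the lowest value of Trim30d and Trim14 was that of replicate 4. Trim30b had 1.64, 1.97, 1.61 and 1.46 RPKM at 24 h, Trim12c 3.43, 4.00, 3.86 and 2.92 RPKM, and Trim12a 2.07, 2.04, 1.87 and 2.24 RPKM. Trim34a had 4.08, 3.84, 3.17 and 2.70 RPKM, Trim36 0.562, 0.548, 0.580 and 0.403 RPKM, and Trim56 2.17, 1.96, 2.46 and 1.84 RPKM. In each of these the 24 h libraries lay below all 4 h libraries. Trim8 came back with 30.1, 22.4, 26.3 and 27.3 RPKM (log2 1.52, SE 0.08, adjusted p 7.4e-18) and Trim47 in part (log2 1.30, SE 0.08, adjusted p 1.0e-15). Trim24 rose by 0.85 (SE 0.04, adjusted p 3.2e-18), Trim25 fell by 0.45 (adjusted p 2.9e-07) and Trim28 by 0.20 (adjusted p 0.02), and Trim33 had a log2 change of 0.14 (adjusted p 0.07). Without 24 h replicate 4 and LA 24 h replicate 1, 12 members were higher and 15 lower: Trim5, Trim35 and Trim11 no longer passed, Trim23 (0.17) and Trim33 (0.21) did, and Trim28 had -0.32.

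Lactic acid had smaller effects than the stimulus. At 8 h against 8 h without it, 15 members were higher and 10 lower, where 68.2% of all tested genes passed, 32.1% higher and 36.0% lower, and no member changed by 1 or more on the log2(RPKM + 1) scale (0.443% of all tested genes rose and 0.121% fell that far). By the ratio of mean RPKM, Trim68 and Trim34a were lower by more than 2-fold, as were 0.895% of all tested genes, while 2.18% were higher by that ratio. The members' median was -0.01, against -0.02 over all tested genes. By role, 6 of 7 tested members of the chromosome 7 cluster fell and none rose (median -0.32), while 2 TIF1 members rose and 1 fell (median 0.47). Of 7 other antiviral members 2 rose and 2 fell, and of 7 members of the NF-kB class 3 rose and 1 fell. With the scaling to reads, 16 members were higher and 5 lower, where 37.3% of all tested genes were higher and 29.1% lower, and 4 of 7 cluster members fell.

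**Figure D4:**
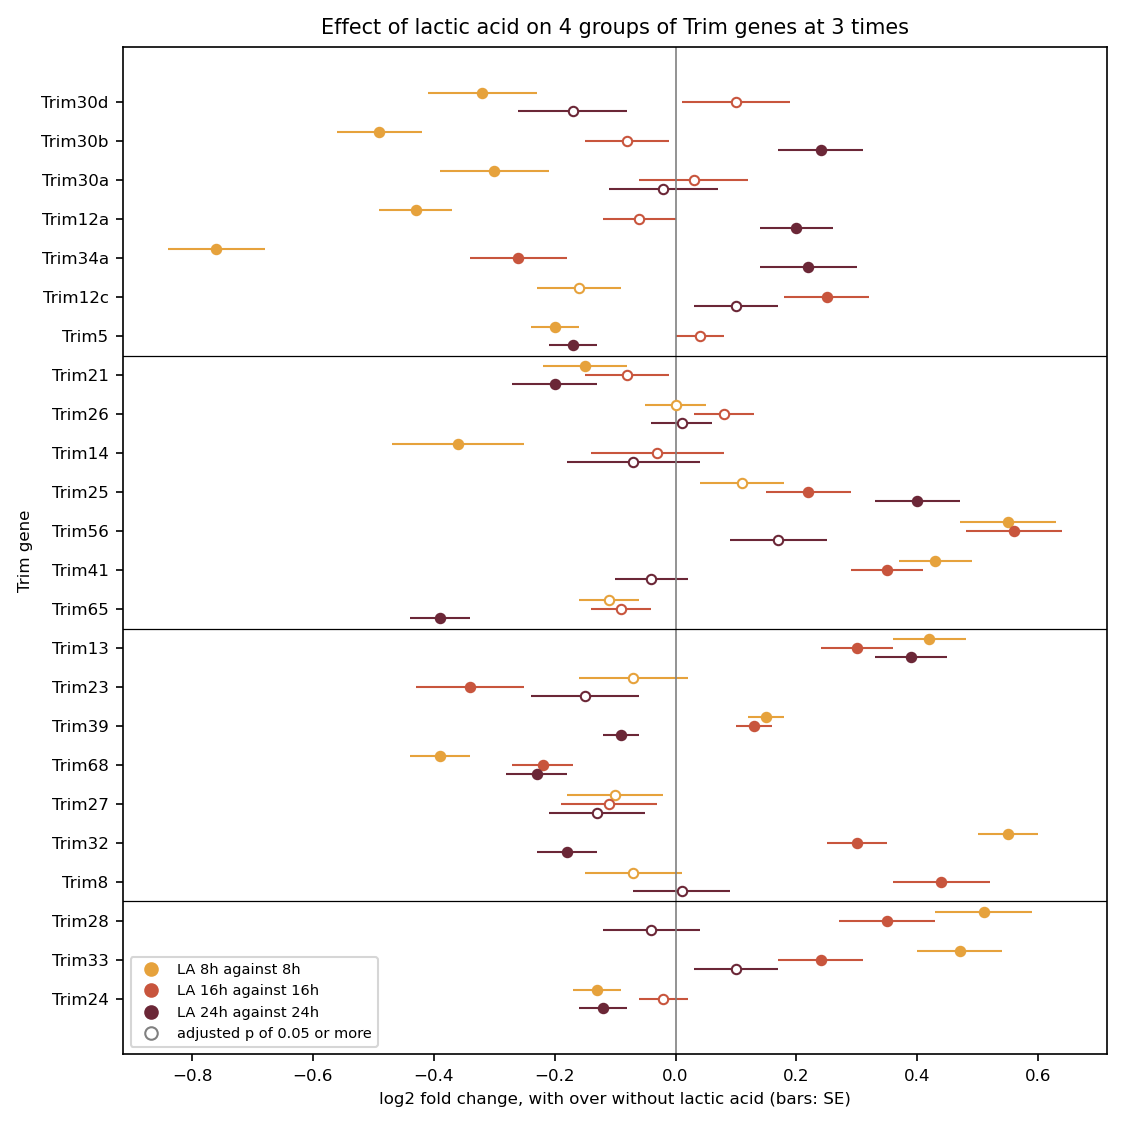
Log2 fold change of the LA group over the group without it at 8, 16 and 24 h, with the standard error of the limma fit as bars and open points where the adjusted p was 0.05 or more. In order of time, Trim34a lies at -0.76, -0.26 and 0.22, and Trim28 at 0.51, 0.35 and -0.04.

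The members that fell with lactic acid at 8 h included Trim34a and its neighbours. Trim34a had 1.37, 1.42, 1.38 and 1.44 RPKM with lactic acid, against 3.35, 2.66, 3.10 and 3.24 RPKM at 8 h without it, 2.2-fold lower in mean (log2 -0.76, SE 0.08, adjusted p 2.4e-09). Trim30b had 2.69, 2.65, 2.23 and 2.56 RPKM with lactic acid, against 4.36, 3.26, 4.43 and 3.89 RPKM (log2 -0.49, SE 0.07, adjusted p 7.1e-07). Trim12a had 1.53, 1.57, 1.49 and 1.73 RPKM with lactic acid, against 2.66, 1.96, 2.67 and 2.64 RPKM (log2 -0.43, SE 0.06, adjusted p 1.5e-06). In these 3 genes no library with lactic acid reached the lowest library without it. Trim5 had 0.527, 0.486, 0.416 and 0.407 RPKM, against 0.646, 0.654, 0.628 and 0.777 RPKM (log2 -0.20, SE 0.04, adjusted p 6.2e-05), so here it fell together with Trim12a. Trim30a had 62.2, 68.9, 58.5 and 70.3 RPKM, against 79.4, 77.4, 84.9 and 78.8 RPKM (log2 -0.30, SE 0.09, adjusted p 0.0038), and Trim30d changed by -0.32. Under the scaling to reads neither passed (-0.21 and -0.24), although their libraries did not overlap. Trim12c had a log2 change of -0.16 (adjusted p 0.051). Outside the cluster Trim68, a ligase known in human cells as a co-activator of the androgen receptor, had 0.139, 0.138, 0.168 and 0.166 RPKM with lactic acid, against 0.402, 0.623, 0.552 and 0.480 RPKM. These low levels did not overlap and were 3.36-fold lower in mean, which the log2(RPKM + 1) scale gives as -0.39 (SE 0.05, adjusted p 2.2e-07) and the fit of whole reads as -1.72. Trim21 had 20.2, 20.6, 18.3 and 21.6 RPKM, against 24.0, 19.9, 23.3 and 22.7 RPKM: the groups overlapped, and the change of -0.15 (SE 0.07, adjusted p 0.049) was lost when any of 6 single libraries was left out and under the scaling to reads (-0.06). Trim25 had a log2 change of 0.11 (adjusted p 0.15), and 0.19 (adjusted p 0.04) under the scaling to reads.

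The members that rose with lactic acid at 8 h included Trim56, which had 5.23, 4.75, 4.81 and 5.11 RPKM, against 3.32, 3.29, 2.90 and 2.83 RPKM (log2 0.55, SE 0.08, adjusted p 3.3e-07). Trim32 had 4.91, 5.17, 4.88 and 5.18 RPKM, against 3.24, 3.03, 3.06 and 3.12 RPKM (log2 0.55, SE 0.05, adjusted p 6.8e-10). Trim28 had 21.3, 20.9, 21.7 and 21.8 RPKM, against 14.4, 15.8, 14.5 and 14.2 RPKM (log2 0.51, SE 0.08, adjusted p 1.9e-06). None of these overlapped. Trim28 with lactic acid at 8 h was close to its 4 h level of 21.2 ± 1.32 RPKM (SD, n = 4). Trim33 averaged 2.90 ± 0.0839 RPKM with lactic acid and 1.82 ± 0.117 RPKM without it (log2 0.47, SE 0.07, adjusted p 1.9e-06), whereas Trim24 averaged 0.273 ± 0.0305 RPKM with lactic acid and 0.393 ± 0.0233 RPKM without it (log2 -0.13, SE 0.04, adjusted p 0.0079, not passing under the scaling to reads). Smaller rises ran from 0.15 to 0.44, among them those of Trim59 (0.44), Trim41 (0.43) and Trim13 (0.42). Effects of lactic acid at 8 h went with gene length over all genes: the median log2 change was -0.29 in the shortest genes (exons up to 2423 bases) and 0.20 in the longest (from 5962 bases). With that trend removed Trim21, Trim39 and Trim44 no longer passed, and the part of length in the other values was not tested further.

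The 8 members with the ISRE core in a promoter that were tested gave 6 falls and no rise with lactic acid at 8 h (median -0.25), and the 17 without it gave 10 rises and 3 falls (median 0.21). Over all tested genes 45.6% with the match fell and 24.2% rose, against 35.3% lower and 33.2% higher without it. Of the 6 falls, those of Trim30a, Trim30d and Trim21 no longer passed under the scaling to reads, as given above. All of the 6 but Trim21 belong to the chromosome 7 cluster, so this count in part repeats that of the cluster.

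At 16 h, 15 members were higher and 4 lower with lactic acid (61.2% of all tested genes passed, 30.2% higher and 31.0% lower), with no change of 2-fold on the log2 scale or in mean RPKM (0.201% of all tested genes rose and 0.0604% fell that far on the log2 scale), and the members' median was 0.12 against -0.01 over all tested genes. Trim56 had 3.85, 3.35, 3.60 and 2.95 RPKM with lactic acid, against 2.1, 1.79, 1.79 and 2.37 RPKM (log2 0.56, SE 0.08, adjusted p 4.5e-07). Trim8 had 38.1, 35.1, 36.8 and 33.0 RPKM, against 28.6, 23.5, 23.8 and 28.6 RPKM (log2 0.44, SE 0.08, adjusted p 2.0e-05), its highest level in any group. Trim46, a microtubule organiser of axons, had 1.48, 1.22, 1.41 and 1.57 RPKM, against 0.821, 0.770, 0.621 and 0.879 RPKM (log2 0.45, SE 0.07, adjusted p 1.8e-06). Each of these 3 rose without overlap. Trim28 (0.35, adjusted p 0.00036), Trim33 (0.24, adjusted p 0.0046) and Trim25 (0.22, adjusted p 0.0046) also rose, and the call of Trim33 was lost with the length trend removed. Lower were Trim23 (-0.34), Trim34a (-0.26), Trim68 (-0.22) and Trim37 (-0.22). Trim30a, Trim21 and Trim24 had log2 changes of 0.03, -0.08 and -0.02 that did not pass (lowest adjusted p 0.31).

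At 24 h, 7 members were higher and 12 lower with lactic acid (47.1% of all tested genes passed, 25.5% higher and 21.7% lower), and none changed 2-fold on the log2 scale or in mean RPKM (0.694% of all tested genes rose and 0.0402% fell that far on the log2 scale). The members' median was -0.04, against 0.01 over all tested genes. Trim25 rose and had 80.6, 85.5, 78.4 and 85.2 RPKM, against 66.8, 59.6, 67.0 and 55.6 RPKM (log2 0.40, SE 0.07, adjusted p 1.1e-05). Its lactic acid libraries were all above those without. Trim25 was the highest member at 24 h both with and without lactic acid, with 26.5% and 21.0% of the summed RPKM. Trim13 had 8.83, 9.93, 9.23 and 10.0 RPKM, against 6.65, 7.26, 7.34 and 6.75 RPKM (log2 0.39, SE 0.06, adjusted p 1.2e-05). Trim44, which lacks a RING domain, had 1.45, 2.31, 2.06 and 2.37 RPKM, against 3.45, 3.06, 3.53 and 2.63 RPKM (log2 -0.46, SE 0.08, adjusted p 4.9e-05). Trim65 had 0.534, 0.550, 0.521 and 0.622 RPKM, against 1.08, 1.07, 1.16 and 0.853 RPKM (log2 -0.39, SE 0.05, adjusted p 8.0e-07). These 4 differed with no overlap, and under the scaling to reads the changes of Trim25 and Trim13 were 0.19 (adjusted p 0.047) and 0.20 (adjusted p 0.024). Trim28 had a log2 change of -0.04 (adjusted p 0.73), Trim33 of 0.10 (adjusted p 0.28) and Trim30a of -0.02 (adjusted p 0.85), while Trim21 and Trim24 fell by 0.20 and 0.12.

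The smaller 24 h calls depended on single libraries and on scaling. Without 24 h replicate 4 and LA 24 h replicate 1, 5 members were higher and 11 lower, and Trim34a (main value 0.22, 0.11 without them), Trim59 (-0.22 and -0.05), Trim30b (0.24 and 0.19), Trim32 (-0.18 and -0.13), Trim11 (-0.17 and -0.13) and Trim24 (-0.12 and -0.07) no longer passed, while Trim30d (-0.17 and -0.23), Trim14 (-0.07 and -0.21) and Trim23 (-0.15 and -0.21) then did. The scaling to reads lowered the median of all genes to -0.15, and 2 members were higher and 19 lower, where 10.4% of all tested genes were higher and 46.4% lower. The rises of Trim30b, Trim46, Trim3, Trim12a and Trim34a no longer passed under it. When the LA 24 h and 24 h libraries were fitted alone, 9 members passed, 4 higher and 5 lower, where 22.7% of all tested genes passed.

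The effect of lactic acid differed between 24 h and 8 h for 18 members by the interaction term of the same fit, 5 more positive and 13 more negative at 24 h (62.5% of all tested genes passed, 32.7% more positive and 29.7% more negative). Trim34a had a difference of 0.98 (SE 0.11, adjusted p 2.8e-08), followed in the same direction by Trim30b (0.73, SE 0.10, adjusted p 5.3e-07) and Trim12a (0.63, SE 0.09, adjusted p 1.3e-06). In the other direction stood Trim32 (-0.73, SE 0.07, adjusted p 5.0e-09), Trim44 (-0.73, SE 0.12, adjusted p 6.7e-06) and Trim28 (-0.55, SE 0.11, adjusted p 0.00011). Scaled to reads, 3 members were more positive and 19 more negative, where 16.8% of all tested genes were more positive and 47.9% more negative. Without the 24 h libraries that stood apart, 5 were more positive and 13 more negative: Trim12c no longer passed (0.21, adjusted p 0.05) and Trim30a did (0.23, adjusted p 0.049). Of 34 tested members, 3 were lower at 8 h and higher at 24 h (8.82%, against 10.1% of all tested genes), and 6 were higher at 8 h and lower at 24 h (17.6%, against 6.15%). Neither count was stable. The first, of Trim12a, Trim30b and Trim34a, was 1 without those libraries (2.94%, against 11.2% of all tested genes) and 0 scaled to reads (against 3.67%). The second, of Trim11, Trim32, Trim39, Trim44, Trim47 and Trim59, was 3 without those libraries (8.82%, against 6.20%), 8 scaled to reads (23.5%, against 15.7%) and 1 with the groups fitted alone (2.94%, against 2.82%). The 2 lactic acid comparisons share no libraries.

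Genes that work with TRIM proteins were counted from lists. At 4 h against 0 h, where 42.5% of all tested genes were higher and 42.7% lower, 14 of 15 ubiquitin and ISG15 conjugation genes rose and 1 fell (median 0.94), led by Isg15 (4.84), its protease Usp18 (4.83) and the ISG15 ligase Herc6 (2.60). Of 17 genes of nucleic acid sensing 10 rose and 3 fell (median 0.94), with Ifih1 (3.97), Irf7 (3.22) and Zbp1 (2.71) highest and the adaptor Mavs lower (-1.41). Of 17 genes of interferon signal transduction 16 rose and 1 fell (median 1.56). All 4 tested TRIM-type genes with another symbol rose: Mefv (2.35), Rnf135 (1.83), Pml (1.32) and Mid1 (0.69). Of 11 partners of Trim28, 4 rose and 6 fell (median -0.58), shares near those of all genes, with the deacetylase Hdac1 at 1.85 and the methyltransferase Setdb1 at -1.20.

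With lactic acid at 8 h, 6 of these 11 Trim28 partners rose and 2 fell (median 0.15), where 32.1% of all tested genes were higher and 36.0% lower. The remodelers Chd4 and Chd3 changed by 1.15 and 0.81 and Setdb1 by 0.39, in the direction of Trim28, while Hdac1 changed by -0.31. The part in these values of the trend with gene length, given above for lactic acid at 8 h, was not tested. At 24 h none of the 11 rose with lactic acid and 5 fell (median -0.08), where 25.5% of all tested genes were higher and 21.7% lower. Without the 24 h libraries that stood apart 4 fell, and scaled to reads 7 fell, where 46.4% of all tested genes were lower. Ubiquitin and ISG15 genes were split at 8 h, 4 higher and 6 lower (median -0.03), with Usp18 at -0.46 and Isg15 at -0.44 and Uba6 at 0.71. Sensing genes were also split (8 higher, 6 lower), as were those of interferon signalling (5 higher, 7 lower), where Irf1 and Irf9 changed by -0.49 and -0.39 and Jak1 and Tyk2 by 0.41 and 0.62.

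Over the 8 group means, the genes whose pattern was most like that of Trim30a among the other 9941 tested genes were Ifit1 (Pearson r 0.990), Slfn5 (0.987) and Gm4951 (0.984). For Trim28 they were Kdm3b (0.986), Nipbl (0.981) and Ankrd13b (0.962). These are descriptions over 8 points that share libraries and scaling.

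Histone marks at the start sites were read from the authors' peak lists, 1 library per mark and state. Of 30 members with a RefSeq start site, 22 had an H3K18la peak within 2 kb of it in M1 cells (73.3%, the same share as the 73.3% of all listed genes) and 28 in M0 cells (93.3%, against 89.9%). H3K18ac peaks lay at 27 members in M1 cells (90.0%, against 89.7%) and at 27 in M0 cells (90.0%, against 92.6%). Shares of members thus stood near those of all listed genes. Anywhere over the gene with 2 kb on each side, M1 H3K18la peaks were found for 30 of 39 members (against 78.9% of listed genes), M0 H3K18la peaks for 37 (93.2%), M1 H3K18ac peaks for 38 (93.8%) and M0 H3K18ac peaks for 37 (95.5%). The 9 members with no M1 H3K18la peak there were Trim2, Trim3, Trim5, Trim28, Trim36, Trim44, Trim59, Trim62 and Trim68. The lists cannot be compared for change between M1 and M0: they hold 16139 and 21885 H3K18la peaks and 42237 and 41493 H3K18ac peaks, and the H3K18la libraries held 21.0 and 21.8 M mouse reads with 141688 and 310066 spike-in reads for M1 and M0.

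The strongest peak near any RefSeq start of a gene was taken. Within the M1 H3K18la list, the median fold enrichment given by the authors was 4.16. There the peak at the start of Trim34a had 17.45, that of Trim30a 11.29, of Trim56 11.09, of Trim25 10.69, of Trim30d 10.63 and of Trim21 7.67. The value of Trim30a lay at another RefSeq start inside the gene, and the peak at the start whose promoter is printed above had 9.86. Trim28, Trim59, Trim5 and Trim30b were among the members with no H3K18la peak near the start in this list. The peak of Trim13 (3.27) lay below the list median. Within the M0 H3K18la list (median 5.41), Trim47 had 18.56, Trim56 13.51, Trim39 12.54, Trim25 11.46, Trim34a 10.28, Trim59 9.25 and Trim28 4.36. Trim5 and Trim30b had none. Within the M1 H3K18ac list (median 3.56) Trim34a had 9.45, Trim56 8.38, Trim25 7.31, Trim30a 6.86 and Trim5 3.84, while Trim30b had none. The value of Trim30a again lay at the start inside the gene, with 6.28 at the start whose promoter is printed. Within the M0 H3K18ac list (median 3.93) Trim47 had 8.47 and Trim34a 6.49, with no peak near the start of Trim12a, Trim5 or Trim30b.

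M1 peaks of the chromosome 7 cluster were 709 to 7673 bases wide for H3K18la and 538 to 13156 bases wide for H3K18ac. The median widths in these whole lists were 1143 and 1640 bases. Over the 289.1 kb of the cluster, 9 H3K18la peaks covered 22058 bases in M1 cells with a mean fold enrichment of 9.93. In M0 cells 9 peaks covered 8863 bases with a mean of 6.24. H3K18ac peaks numbered 12 in M1 cells, covering 40239 bases (mean 6.13), and 8 in M0 cells, covering 11577 bases (mean 4.43). Over the whole lists, H3K18la peaks covered 25.8 Mb in M1 and 34.8 Mb in M0 cells, and H3K18ac peaks 136.3 Mb in M1 and 112.1 Mb in M0 cells. The widest M1 peaks of the cluster, 7673 bases of H3K18la with fold enrichment 12.30 and 13156 bases of H3K18ac with 10.12, overlapped each other. This H3K18la peak and another of 3430 bases lay between Trim30b and Trim30a, outside the RefSeq bounds of the members. With no replicate, these covered lengths carry no test of a difference between M1 and M0 cells.

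**Figure D5:**
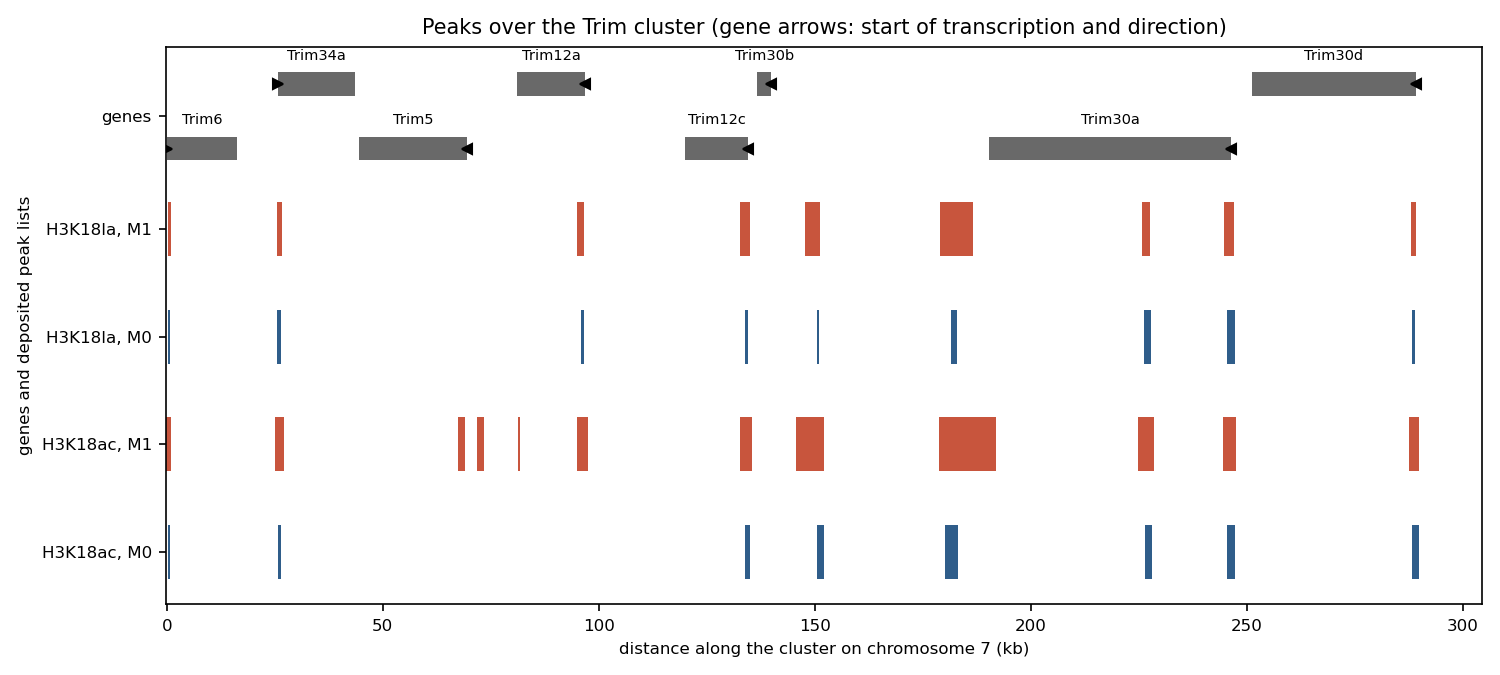
The chromosome 7 Trim cluster, with RefSeq genes and the peaks of the 4 deposited lists drawn to scale in kb from the start of Trim6. Colours mark the state (M1 or M0) and not the fold enrichment. M1 H3K18la peaks cover 22058 bases and M0 H3K18la peaks 8863 bases of the 289.1 kb.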

How the data were processed

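The 32 RNA libraries (8 groups of 4) were stranded mRNA libraries and the ChIP chromatin was cut with MNase, per the labels' protocols. The authors deposited RPKM, on their effective library sizes. The authors' deposited table also holds log2 fold changes over 0 h with a p-value and FDR, and lists genes that pass that test, with 19 exceptions. HISAT2 2.1.0, featureCounts 1.5.0-p1, edgeR, Bowtie2 2.2.6, SAMtools 0.1.19 and MACS2 2.2.1 are named per the submitters' processing notes, with builds mm10 and GRCm38. The strand setting of the counting is not given in the sources used here. The deposited peak lists give each peak's fold enrichment, its −log10 p and −log10 q and a score, and mouse and spike-in read counts of each ChIP library were deposited. The peak caller's control and threshold are not given in the sources used here.

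Since the RNA values are RPKM, the planned count test was replaced. The 9942 genes that reached 1 RPKM in 4 or more libraries (1242 lay below) were tested with limma-trend (limma 3.58.1, R 4.3.3) on log2(RPKM + 1), in 1 fit of all 32 libraries (24 residual degrees of freedom), with Benjamini-Hochberg adjustment over all tested genes in each of 9 comparisons. This scale understates changes of low genes. Whole reads were recovered (100.0% of values within 0.05 of a whole number, 10.0% by chance) and fitted with voom, which called 8501 genes at 4 h and 6831 for lactic acid at 8 h. The procedure was tested on simulated data. Sequences and start sites came from RefSeq (GRCm38.p6), with 39 members matched to a position and 30 to a start site. A peak counted within 2 kb of a start.

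Members and gene lists were chosen with earlier results of these data known. Every member was named, those past 2-fold on the log2(RPKM + 1) scale with each library's value or fold change, and Trim21, Trim24, Trim25, Trim28, Trim30a and Trim33 in every comparison with 0 h, with 4 h or of lactic acid. Libraries were left out in turn, and the pseudocount, filter, scaling, length trend, fit and peak thresholds were varied.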

Additional observations from a re-analysis of the deposited data

Results flagged for a closer look

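In groups of 4 libraries, 11 of 176 member and group combinations (6.25%) held a library far from the rest of its group, where chance gives about 1 in 20. Below its group lay Trim12a at 8 h in replicate 2 (1.96 RPKM, the other libraries 2.64 to 2.67), Trim12c at 4 h in replicate 1 (11.4 RPKM, others 13.6 to 13.7) and Trim34a at 4 h in replicate 1 (8.45 RPKM, others 9.73 to 9.75). Likewise lower were Trim13 at LA 16 h in replicate 1 (6.13 RPKM, others 6.72 to 6.83), Trim14 at LA 8 h in replicate 3 (3.49 RPKM, others 4.20 to 4.30), Trim36 at 0 h in replicate 1 (0.447 RPKM, others 0.566 to 0.577) and Trim37 at 4 h in replicate 3 (2.02 RPKM, others 2.15 to 2.17). Above its group lay Trim14 at 8 h in replicate 1 (6.42 RPKM, others 5.06 to 5.27), Trim8 at 8 h in replicate 1 (22.2 RPKM, others 19.4 to 19.7), Trim28 at 4 h in replicate 1 (23.2 RPKM, others 20.5 to 20.8) and Trim28 at 8 h in replicate 2 (15.8 RPKM, others 14.2 to 14.5). Library 1 of 4 h held 3 of these values.

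The log2 effect of lactic acid at 24 h differed from that at 8 h by the interaction term of limma's fit for 18 members. It was more positive at 24 h for Trim34a (0.98), Trim30b (0.73), Trim12a (0.63), Trim25 (0.30) and Trim12c (0.25, adjusted p 0.03), all but Trim25 members of the chromosome 7 cluster. Under the scaling to reads the differences of Trim25 (0.00) and Trim12c (0.01) did not pass. It was more negative at 24 h for Trim32 and Trim44 (-0.73 each), Trim59 (-0.66), Trim28 (-0.55), Trim41 and Trim47 (-0.48 each), Trim11 (-0.39), Trim56 (-0.38), Trim33 (-0.37), Trim36 (-0.35), Trim65 (-0.28), Trim39 (-0.24) and Trim37 (-0.21).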

How the results depend on the processing

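Among total counts of members called or with peaks, both directions together, 158 recomputed values stayed within 1.5 times the main count. Exceptions were lactic acid at 24 h with its groups fitted alone (9 called, main 19) and peaks at start sites at a −log10 q of at least 10, with 13 members for M1 H3K18la (main 22), 17 for M0 H3K18la (28), 12 for M1 H3K18ac (27) and 8 for M0 H3K18ac (27). By direction, the scaling to reads moved more: 6 higher at 8 h (main 10), 4 higher at 16 h (9), and with lactic acid 5 lower at 8 h (10) and 2 higher and 19 lower at 24 h (7 and 12), with 3 more positive between 24 h and 8 h (5), which was 8 with the length trend removed. Leaving out 1 library gave 31 to 32 called at 4 h, 24 to 26 at 8 h, 24 to 28 at 16 h and 24 to 27 at 24 h against 0 h, 25 to 27 at 24 h against 4 h, 22 to 26, 19 to 20 and 17 to 19 for lactic acid at 8, 16 and 24 h, and 16 to 21 for its difference between 24 h and 8 h. With the replicate number as a block, 32, 26, 28, 26, 28, 25, 20, 19 and 19 members were called in the same order. Same-numbered libraries correlated between -0.64 and 0.51, so the numbers do not pair them. Leaving out both 24 h libraries that stand apart was chosen after seeing the data. ChIP had no replicates, so differences between M1 and M0 could not be tested.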

Other observations

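Trim12a and Trim5 lie next to each other on the minus strand and share 241 of 300 promoter bases with the same match to the ISRE core, 10 bases after the start in Trim12a and 49 bases before it in Trim5. Their levels at 4 h were 8.42 ± 0.668 RPKM for Trim12a and 0.916 ± 0.0745 RPKM for Trim5 (SD, n = 4 each), against 2.58 ± 0.214 RPKM and 1.06 ± 0.0410 RPKM at 0 h. Of the 4 peak lists, M1 H3K18ac alone held a peak within 2 kb of the start of Trim5 (fold enrichment 3.84), whereas Trim12a had 1 in M1 H3K18la (5.72), M0 H3K18la (4.23) and M1 H3K18ac (3.56).

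Trim36 was raised for a short time: it averaged 0.540 ± 0.0622 RPKM at 0 h, 3.5 ± 0.192 RPKM at 4 h, 2.80 ± 0.213 RPKM at 8 h and 0.357 ± 0.0414 RPKM at 16 h (SD, n = 4 each). Trim46 had its lowest mean at 4 h (0.185 ± 0.0534 RPKM) and its highest with lactic acid at 24 h (1.52 ± 0.248 RPKM, against 1.10 ± 0.187 RPKM without it).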
